A study of Homo sapiens with 2 samples.

Results

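Translation initiation factor genes encode the proteins that bring the ribosome to the start codon of an mRNA. They were chosen by symbol, as all listed genes whose symbol begins with EIF1 to EIF6. EIF4B, the EIF4E-binding proteins (EIF4EBP), the EIF4B pseudogenes (EIF4BP), the eIF2 kinases (EIF2AK) and pseudogenes were left out, and 1 entry was kept per symbol. Of 71 entries with such a symbol, 44 were members, out of 16424 listed genes in all. EIF3L was listed under 2 gene identifiers with the same values and was counted once.

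Cap analysis of gene expression (CAGE), which sequences a short tag from the 5′ end of each capped RNA, was applied to PLC/PRF/5, a human hepatoma cell line. Non-treated cells (0 µg/ml) gave 1 library, and cells kept for 6 h with 3 µg/ml M2BPGi gave the other. M2BPGi is a glycoform of Mac-2-binding protein that binds the lectin WFA and serves as a serum marker of liver fibrosis. The comparison asks which transcripts of hepatoma cells differ after exposure to it, with no replicate check because each condition has 1 library.

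Values are CPM, tag numbers scaled to the size of the library. The totals were 24040209 tags in non-treated and 24862941 tags in M2BPGi-treated cells. The log2 ratio of treated to non-treated cells was taken after adding 1 CPM to both values, which understates the change of low genes. It was computed over the 13724 genes with a mean of at least 1 CPM, which 43 of the 44 members passed. A gene is said to be past the fold when this ratio is at least 1.5-fold. Intervals are 95% Clopper-Pearson intervals of the ratio of tags without the added CPM, and they cover counting error only. Since each capped RNA gives 1 tag whatever its length, CPM of different genes were set side by side without division by length.

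Most cytosolic mRNAs are translated after the cap at their 5′ end is bound by eIF4E, which joins the scaffold eIF4G and the helicase eIF4A. This assembly recruits the small ribosomal subunit, which carries eIF1, eIF1A, eIF3, eIF5 and the initiator tRNA held by eIF2, and the subunit then scans to the start codon. The kinase mTORC1 frees eIF4E from its binding proteins, stress kinases limit the recycling of eIF2 by eIF2B, and growing cells, tumour cells among them, are known to make these factors in large amounts.

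The members were mostly abundant. They summed to 6895 CPM in the non-treated and 7788 CPM in the treated library. Of the 44 members, 28 (63.6%) had a mean of at least 100 CPM, as did 1924 (11.7%) of all 16424 listed genes. EIF5A, which helps the ribosome through difficult peptide bonds, had the highest level among the members, at 920 CPM in the non-treated and 1126 CPM in the treated library. EIF4G2, a relative of eIF4G without the site for eIF4E, followed with 734 and 853 CPM. EIF2S2, the beta subunit of eIF2, was at 478 and 548 CPM. EIF1, which guards the choice of the start codon, was at 453 and 537 CPM, and the helicase gene EIF4A1 at 339 and 438 CPM. The level was higher in the treated library for each of these 5, as it was for 70.1% of all genes at 300 CPM or more. At the other end were EIF5AL1, an EIF5A-like gene at 0.46 and 0.76 CPM, the cap-binding gene EIF4E at 4.37 and 4.30 CPM, and EIF3C, a core subunit of eIF3, at 5.62 and 0.60 CPM.

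**Figure D1:**
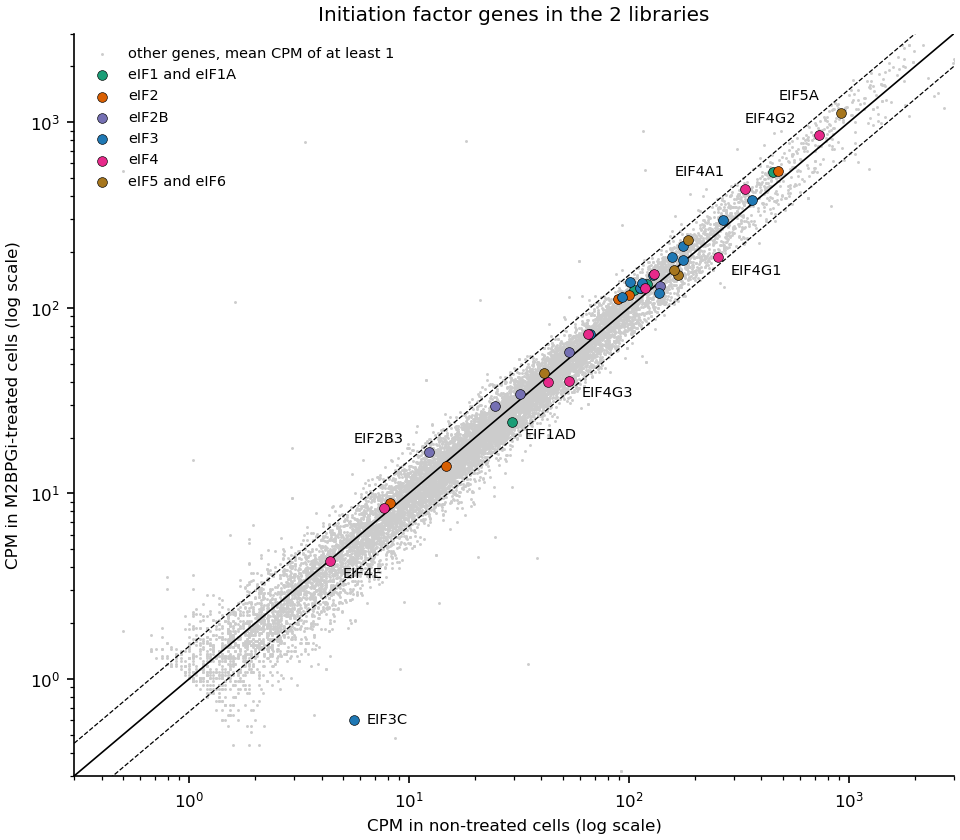
CPM of each gene in non-treated cells (x axis, log scale) and in M2BPGi-treated cells (y axis, log scale), with 43 initiation factor genes coloured by factor, other genes above 0 in both libraries in grey, equality as a solid line and 1.5-fold as dashed lines. All members drawn except EIF3C lie between the dashed lines, and EIF5AL1, with a mean below 1 CPM, is not drawn.

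Small differences in the same direction were seen in most members. The log2 ratio was above 0 in 33 of 43 members and below 0 in 10, while it was above 0 in 42.9% of all 13724 genes. That share rose with level, being 41.7% between 10 and 100 CPM, 59.7% between 100 and 300 CPM and 70.1% at 300 CPM or more. The members above 0 in these ranges were 7 of 11, 18 of 22 and 6 of 6. Below 10 CPM the share was 36.0%, with 2 of 4 members above 0. The median was 0.15 over the members and -0.05 over all genes, and the middle 50% of the members lay between 0.03 and 0.24. No member (0 of 43) was at least 1.5-fold higher, and 1 member, EIF3C, was at least 1.5-fold lower. Among all genes 1.60% were past the fold upward and 4.04% downward, that is 219 and 555 genes. These became 298 and 412 genes after a rescaling that sets the median of all genes to 0, and 288 and 439 with a trimmed mean of log ratios. The members' counts of 0 and 1 were the same under both scalings. At a lower threshold, a log2 ratio of 0.32 in either direction, 5 members were higher (11.6%, beside 9.04% of all genes) and 3 were lower (6.98%, beside 18.4%). The 5 depended on the settings, being 8 (beside 12.5% of all genes) after the rescaling and 3 (beside 5.65%) with 5 CPM added, alternatives chosen after seeing the data.

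The depth behind most members was large. The interval lay above 0 for 27 of 43 members, as for 22.8% of all genes, and below 0 for 7 members, as for 31.5% of all genes. It held 0 for 9 members. After the rescaling to a median of 0, it lay above 0 for 30 members and 27.7% of all genes, and below 0 for 6 members and 26.0% of all genes. Because intervals narrow with the number of tags and the members are more abundant than most genes, these shares depend on level. In bulk RNA, a difference in the number of cells that make a transcript and one in the RNA per cell cannot be told apart.

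**Figure D2:**
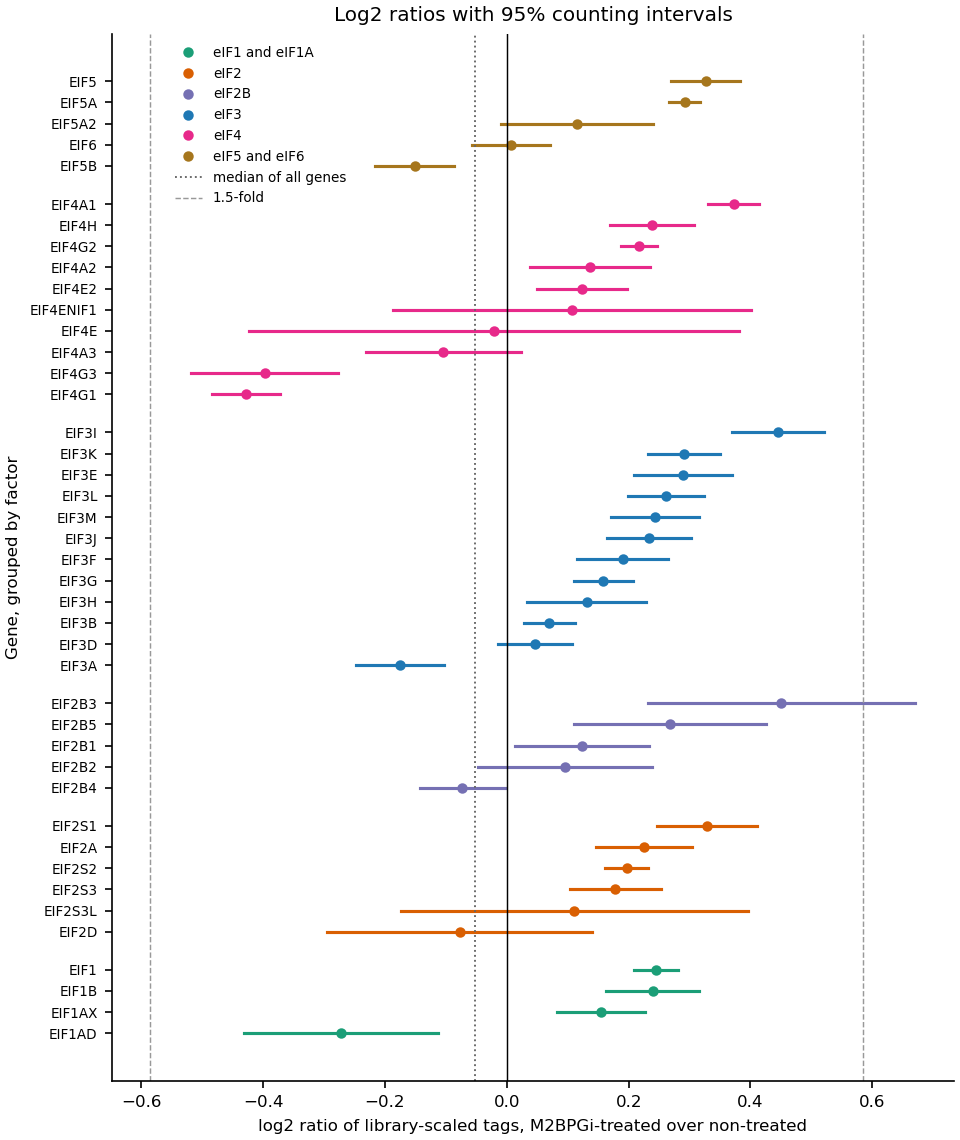
Log2 ratio of library-scaled tags in M2BPGi-treated over non-treated cells (x axis) for 42 members, grouped by factor on the y axis, with bars for the 95% counting intervals. EIF3C, at -3.22 on this scale without an added CPM, lies beyond the axis and is not drawn, and most other points lie between 0 and 0.45.

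Initiation factor mRNAs include several that begin with a C followed by a run of pyrimidines, the mark of mRNAs whose translation follows mTORC1. RefSeq promoters (GRCh38.p14) were matched by symbol for 37 of the 44 members. They were searched, on the strand of the gene only, for a run of at least 6 C or T bases that opens with C within 5 bases of the annotated start. Such a run was found at 11 of the 37 members (29.7%) and in 10.0% of all 35116 promoters, which include those of genes not expressed here. Of the 13724 genes with a mean of at least 1 CPM, 8859 (64.6%) were matched, and 14.5% of these had a run. A member or gene was counted when any of its annotated starts had a run, while the 10.0% counts single promoters, an unlike unit. The 10.0% also includes genes not expressed here, and the 14.5% leaves out unmatched genes. Both are given as values only and not as a check. The rule was chosen after other lengths and distances had been tried, and how far the shares depend on that choice is not shown here. The 11 members were EIF2A, EIF2D, EIF2S3, EIF3D, EIF3F, EIF3J, EIF3K, EIF3M, EIF4A2, EIF4E2 and EIF4G2. Their log2 ratios ran from -0.07 to 0.29 with a median of 0.19, and 10 of the 11 were above 0, beside 42.9% of all genes. Of the 25 tested members with a promoter but no such run, 17 were above 0, with a median of 0.11. Shares above 0 among matched genes with and without a run are not given here, so these counts are values only. Among the matched genes in general, the median was -0.01 over 1283 with a run and -0.05 over 7576 without. The positions of the tags themselves were not analysed here, so the starts are those of the annotation.

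The sequences below run from 30 bases before to 20 bases from the annotated start, so that base 31 is the start, and capitals mark the run where there is one. They are from members with 1 RefSeq start and a mean of at least 10 CPM. Among these, the 3 with the highest log2 ratio, 3 with the lowest and 3 with the longest runs are shown. EIF3C, EIF4G1, EIF4G3 and EIF3A had lower ratios than EIF5B and EIF4A3 but are not shown. EIF4A3 had an interval that held 0.
EIF3I (chr1:32222377-32222426, plus strand): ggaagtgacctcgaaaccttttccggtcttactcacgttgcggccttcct
EIF2B3 (chr1:44986576-44986625, minus strand): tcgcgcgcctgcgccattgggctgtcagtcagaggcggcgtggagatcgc
EIF4A1 (chr17:7572795-7572844, plus strand): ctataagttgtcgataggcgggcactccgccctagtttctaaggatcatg
EIF1AD (chr11:66002138-66002187, minus strand): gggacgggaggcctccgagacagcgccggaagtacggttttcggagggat
EIF5B (chr2:99337359-99337408, plus strand): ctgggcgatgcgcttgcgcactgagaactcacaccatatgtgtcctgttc
EIF4A3 (chr17:80147109-80147158, minus strand): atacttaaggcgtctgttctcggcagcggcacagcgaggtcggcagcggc
EIF3F (chr11:7987307-7987356, plus strand): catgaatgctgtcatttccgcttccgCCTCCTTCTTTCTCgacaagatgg
EIF2S3 (chrX:24054926-24054975, plus strand): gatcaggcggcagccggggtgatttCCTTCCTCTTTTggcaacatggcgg
EIF3D (chr22:36529147-36529196, minus strand): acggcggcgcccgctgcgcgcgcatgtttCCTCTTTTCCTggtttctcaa
The runs were 14 bases at EIF3F, 12 at EIF2S3 and 11 at EIF3D. Among members with 1 RefSeq start and a mean of at least 10 CPM, neither the 3 highest nor the 3 lowest had one. Of all matched members 29.7% had one, and of the matched genes 14.5%, so 3 genes at each end are too few to compare.

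The factors eIF1 and eIF1A keep the scanning ribosome accurate. Of the 4 members named for them, 3 had a log2 ratio above 0, beside 42.9% of all genes, and the median was 0.20. EIF1, with the levels given above, had a log2 ratio of 0.24 (interval 0.21 to 0.28). Its paralogue EIF1B was at 106 and 125 CPM, with the same log2 ratio of 0.24. EIF1AX, the X-linked gene of eIF1A, was at 121 and 134 CPM (0.15, interval 0.08 to 0.23). EIF1AD, which encodes a nuclear protein with an eIF1A-like domain and is not a scanning factor, went the other way, at 29.3 and 24.3 CPM (-0.26, interval -0.43 to -0.11).

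The 3 subunits of eIF2, which carries the initiator tRNA, were each higher in treated cells, beside 42.9% of all genes. That share was 59.7% between 100 and 300 CPM, the range of EIF2S1 and EIF2S3, and 70.1% at 300 CPM or more, that of EIF2S2. EIF2S1 encodes the alpha subunit, whose phosphorylation slows initiation, and was at 89.0 and 112 CPM (0.33, interval 0.25 to 0.41). EIF2S2, the beta subunit, had a log2 ratio of 0.20 (interval 0.16 to 0.23). EIF2S3, the gamma subunit that binds GTP, was at 113 and 128 CPM (0.18, interval 0.10 to 0.25). The levels of the 3 were unequal, with EIF2S2 above both others in each library. EIF2A and EIF2D encode proteins outside this complex that can deliver tRNA in other ways. EIF2A was at 100.3 and 117 CPM (0.22), and EIF2D was low, at 14.8 and 14.0 CPM, with an interval that held 0 (-0.07, interval -0.29 to 0.14).

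The exchange factor eIF2B, which reloads eIF2 with GTP, had 4 of 5 subunits above 0, beside 42.9% of all genes, and a median of 0.12. EIF2B3, a subunit of its catalytic part, was at 12.3 and 16.8 CPM, from 295 and 417 tags (0.42, interval 0.23 to 0.67). EIF2B5, the catalytic subunit, was at 24.6 and 29.6 CPM (0.26, interval 0.11 to 0.43). EIF2B4, of the regulatory part, had the highest level of the 5, at 139 and 132 CPM, and was the 1 below 0 (-0.07, interval -0.14 to -0.003). Both rescalings moved it to -0.02, and its interval then held 0. The most and the least abundant of these subunits thus lay on opposite sides of 0.

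The largest factor, eIF3, holds the small subunit and the mRNA, and 11 of its 13 members were above 0, with a median of 0.19. Of all genes 42.9% were above 0, and of those between 100 and 300 CPM 59.7% were. EIF3I, a core subunit built on WD repeats, had the highest log2 ratio of the tested members, at 101 and 138 CPM (0.44, interval 0.37 to 0.52). With 0.1 CPM added in place of 1 CPM, EIF2B3 had 0.448 and EIF3I 0.445. EIF3K, EIF3E, EIF3L and EIF3M, which belong to the octamer of PCI and MPN subunits of eIF3, had log2 ratios of 0.29, 0.29, 0.26 and 0.24. Of the rest of that octamer, EIF3F and EIF3H had 0.19 and 0.13, and EIF3A and EIF3C were below 0. EIF3B, another core subunit, had the highest level, at 364 and 382 CPM, with a small difference (0.07, interval 0.03 to 0.11). EIF3D, which can itself bind the cap of some mRNAs, was at 176 and 182 CPM (0.05, interval -0.01 to 0.11). EIF3A, the largest subunit, was lower, at 137 and 121 CPM (-0.17, interval -0.25 to -0.10). The spread of these ratios between cultures cannot be known from 1 library per condition.

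EIF3C stood outside the others. Its level was 5.62 CPM in the non-treated and 0.60 CPM in the treated library, from 135 and 15 tags, a log2 ratio of -2.05. Without the added CPM the ratio was -3.22 (interval -4.10 to -2.45). Both levels are far below those of the other subunits of eIF3, the lowest of which was EIF3H at 66.3 and 72.6 CPM. The first bases of EIF3C are identical over 437 nt to those of EIF3CL, a copy elsewhere in the genome that is not analysed here. How tags that fit both were assigned is not given in the sources used here, so the level of EIF3C is uncertain.

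The 10 members named for eIF4, not all of which act at the cap, moved in both directions. There were 6 above 0, beside 42.9% of all genes, and the median was 0.11. EIF4A1, the main helicase, had a log2 ratio of 0.37 (interval 0.33 to 0.41). EIF4H, which stimulates that helicase, was at 130 and 153 CPM (0.24, interval 0.17 to 0.31). The scaffold EIF4G1, which joins the cap-binding protein to eIF3, was at 254 and 189 CPM, the lowest log2 ratio among members with a mean of at least 10 CPM (-0.43, interval -0.48 to -0.37). Its paralogue EIF4G3 was at 53.2 and 40.4 CPM (-0.39, interval -0.52 to -0.28). EIF4G2 was on the other side of 0 (0.22, interval 0.19 to 0.25). Thus the scaffolds that bind eIF4E were lower and the one that does not was higher, though none of them was past the fold. The coding sequences of EIF4G1 and EIF4G3 have 4818 and 5322 nt, and that of EIF4G2 has 2721 nt. All genes of 4000 to 6000 nt had a median of -0.19, and those of 2600 to 4000 nt had -0.13. The part of length in this split was not tested. EIF4E2, a cap-binding protein that can block initiation, was at 118 and 129 CPM (0.12, interval 0.05 to 0.20). EIF4ENIF1, which carries eIF4E into the nucleus, was at 7.70 and 8.29 CPM with an interval that held 0.

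In the last step eIF5 and eIF5B act on GTP so that the large subunit can join, and EIF6 keeps that subunit apart until then. EIF5, which makes eIF2 spend its GTP, was at 186 and 233 CPM (0.32, interval 0.27 to 0.38). EIF5A had a log2 ratio of 0.29 (interval 0.27 to 0.32). EIF5B, which brings the large subunit, was lower, at 167 and 151 CPM (-0.15, interval -0.22 to -0.09). EIF6 was level, at 160.1 and 161 CPM (0.01, interval -0.06 to 0.07). EIF5AL1, with 11 and 19 tags, was below the mean of 1 CPM and stayed out of the counts. Of the 5 tested members of this group, 4 were above 0, beside 42.9% of all genes and 59.7% of those between 100 and 300 CPM. The interval lay above 0 for 2 and below 0 for 1, beside 22.8% and 31.5% of all genes. It held 0 for EIF6 and for EIF5A2 (0.11, interval -0.01 to 0.24).

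Within families of paralogues the shares show which copy supplies most transcripts, and exact binomial intervals of the shares cover counting error only. In the eIF4G family, EIF4G1 held 24.4% of the tags in non-treated cells (interval 23.9% to 24.9%) and 17.4% in treated cells (17.0% to 17.9%). EIF4G2 held 70.5% and 78.8%, and EIF4G3 5.11% and 3.73%. In the eIF4A family, EIF4A1 held 75.8% (74.9% to 76.6%) and 79.7% (79.0% to 80.4%). The intervals of the libraries did not overlap for any of these 4 genes, nor for EIF4A2 and EIF4A3, the rest of the eIF4A family. The shares of a family are bound to each other, so these are not separate results. Such overlap was not counted over all genes. At this depth the interval of the ratio lay above 0 for 22.8% and below 0 for 31.5% of all genes. EIF4A2, a second helicase of the cap complex, held 14.6% and 13.1%, and EIF4A3, which marks exon junctions and is not a part of that complex, held 9.60% and 7.26%. EIF4A3 was itself at 42.9 and 39.9 CPM, with an interval that held 0 (-0.10, interval -0.23 to 0.02), and EIF4A2 at 65.4 and 71.9 CPM (0.13, interval 0.04 to 0.24).

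Other families kept nearly the same shares. EIF1 held 81.0% of the tags of EIF1 and EIF1B in non-treated cells and 81.1% in treated cells. EIF2S3 held 93.2% and 93.5% beside EIF2S3L, a copy of the gamma subunit gene at 8.19 and 8.85 CPM. These EIF1 and EIF2S3 intervals overlapped between the libraries. EIF5A held 95.7% and 96.1% beside EIF5A2, which is known for a narrower range of tissues and was at 41.3 and 44.7 CPM, and EIF5AL1 held 0.0476% and 0.0652%. EIF4E held 3.57% (interval 2.93% to 4.30%) and 3.24% (2.66% to 3.90%) beside EIF4E2. A share this small for the main cap-binding protein rests on a gene with a near-identical pseudogene, whose values are given further on. EIF2S3 matches EIF2S3L at 95.6% over 500 nt, and EIF5A matches EIF5AL1 at 98.7% over 383 nt. The shares of these 2 families therefore also depend on how tags that fit both copies were assigned.

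**Figure D3:**
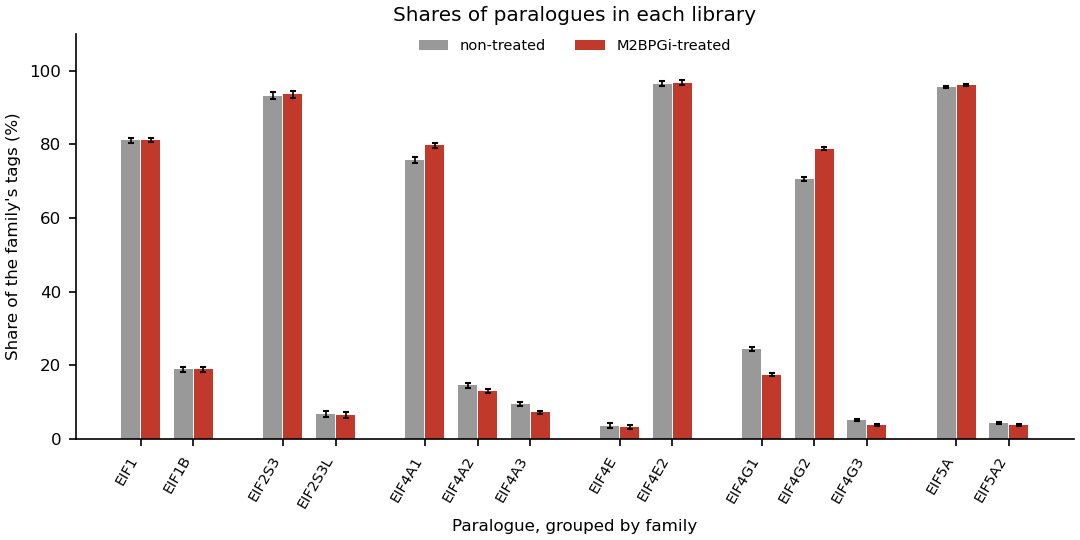
Share of each paralogue in the summed tags of its family (y axis, percent) in non-treated (grey) and M2BPGi-treated (red) cells, with 95% exact binomial intervals. EIF4G1 goes from 24.4% to 17.4% and EIF4G2 from 70.5% to 78.8%, while EIF1 stays near 81%. EIF5AL1, below 0.1%, is not drawn.

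Abundant genes had higher log2 ratios in these libraries, so the members were read beside genes of like level. Between 100 and 300 CPM, the median was 0.21 over 22 members and 0.07 over 1393 genes. At 300 CPM or more it was 0.23 over 6 members and 0.16 over 531 genes. Between 10 and 100 CPM it was 0.11 over 11 members and -0.05 over 7540 genes. The median of the members was above that of all genes in each of these ranges, and the distance was smallest at the highest levels. Below 10 CPM it was 0.04 over 4 members and -0.11 over 4260 genes.

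Length went with the ratio as well. The longest annotated coding sequence (GENCODE v29) was known for all 43 tested members and for 82.5% of all 13724 genes. Of the 8 members with at least 2400 nt, 3 were above 0 (EIF3B, EIF4ENIF1 and EIF4G2) and 5 below. Those 5 were EIF3A with 4146 nt, EIF3C with 2739 nt, EIF4G1 with 4818 nt, EIF4G3 with 5322 nt and EIF5B with 3660 nt. The median was -0.16 over the 8 members and -0.15 over the 2410 genes of that length, of which 23.7% were above 0. Between 1200 and 2400 nt, 11 of 14 members were above 0, with a median of 0.20, beside 38.3% and -0.08 over 4233 genes. Between 600 and 1200 nt, 14 of 15 members were above 0, with a median of 0.19, beside 54.2% and 0.03 over 3202 genes. Below 600 nt, 5 of 6 members were above 0, with a median of 0.20, beside 70.3% and 0.13 over 1473 genes. The distance between the medians was thus largest at 1200 to 2400 nt, smaller at shorter lengths, and near 0 for the longest. Across genes, which are not independent replicates and share both libraries, Spearman's rho of length and log2 ratio was -0.284 over 39 members and -0.380 over 8565 genes with a mean of at least 10 CPM. The part of length or RNA integrity in these ratios was not tested.

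**Figure D4:**
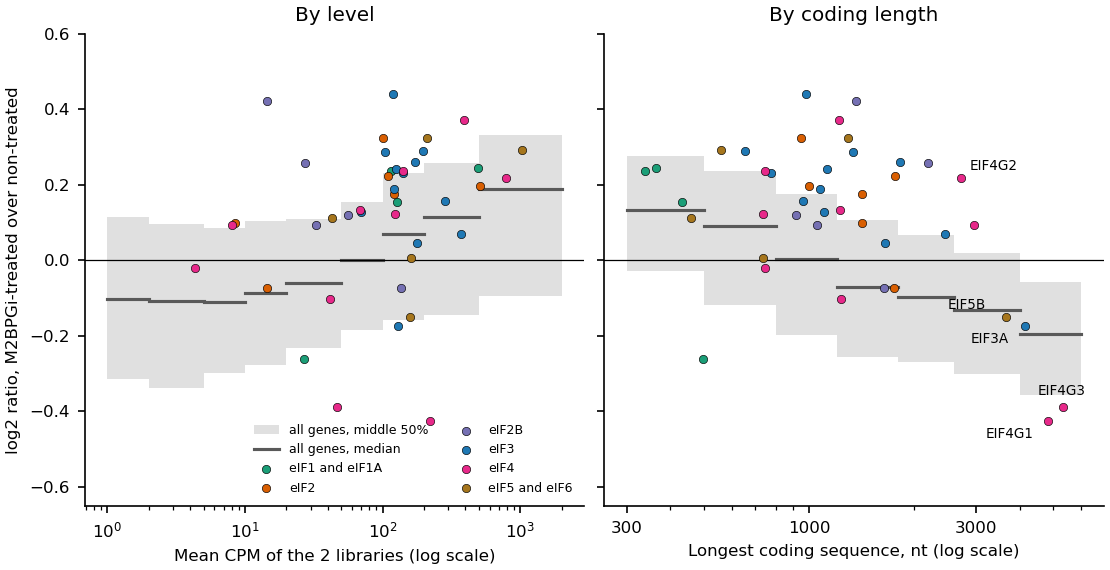
Log2 ratio of M2BPGi-treated over non-treated cells (y axis) against mean CPM (left, log scale) and longest coding sequence (right, log scale) for 42 members, with the median (dark lines) and middle 50% (grey) of all genes in each range. EIF3C, at -2.05, lies below the axis. EIF4G1, EIF4G3, EIF3A and EIF5B are among the longest and lie below 0.

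Tags of a gene with a near-identical copy can be assigned to either. At least 95% identity over 100 nt within the first 500 nt of a transcript was found elsewhere in the annotation for 15 of the 44 members. For EIF3E, 131 of the 133 matches were shorter than 150 nt. Over the 29 tested members without a copy, 21 were above 0 and the median was 0.12. Over the 14 tested members with a copy, 12 were above 0 and the median was 0.21. Of all genes 42.9% were above 0, with a median of -0.05.

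The clearest case was EIF4E. Its processed pseudogene EIF4EP2, listed under a clone-based name, matches it at 99.0% over 399 nt. EIF4E had 105 and 107 tags, while EIF4EP2 had 1460 and 1830 tags, or 60.7 and 73.6 CPM. The pseudogene thus took 93.3% of the tags of the pair in non-treated cells and 94.5% in treated cells. Summed, the pair was at 65.1 and 77.9 CPM, a log2 ratio of 0.26 (interval 0.16 to 0.36), whereas EIF4E alone had -0.02 (interval -0.42 to 0.38), a sign that turned under both rescalings of the libraries. With both summed, EIF4E would hold 35.6% of the tags of EIF4E and EIF4E2 in non-treated cells and 37.7% in treated cells. Transcription of the pseudogene and assignment of EIF4E tags to it cannot be told apart from these values.

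Among listed pseudogenes of members with a mean of at least 10 CPM, EIF2S2P4 was at 46.3 and 49.5 CPM (0.10, interval -0.02 to 0.22). It matches EIF2S2 at 99.3% over 278 nt and took 8.82% and 8.28% of the tags of the pair. EIF1AXP1 was at 23.5 and 22.4 CPM (-0.07, interval -0.24 to 0.10). It matches EIF1AX at 99.7% over 299 nt and took 16.3% and 14.3% of the pair. Adding these tags left EIF2S2 at 0.19 and EIF1AX at 0.12, so both were still above 0.

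**Figure D5:**
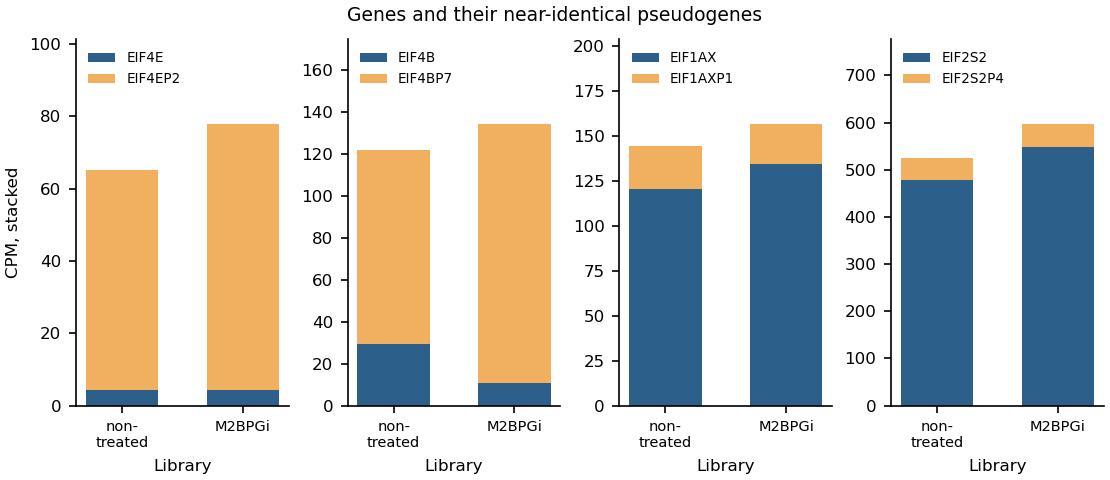
CPM of 4 genes (blue) and, stacked on them, of their near-identical pseudogenes (orange) in the non-treated and the M2BPGi-treated library, each panel with its own y axis from 0. EIF4EP2 holds 93.3% and 94.5% of its pair, and EIF4B is at 29.3 and 10.9 CPM while the sum with EIF4BP7 goes from 122 to 134 CPM.

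A list of 29 partners and regulators of these factors had 28 genes with values. Of these, 13 were above 0 and 15 below, with a median of -0.03, while 42.9% of all genes were above 0. The median of the partners turned to 0.03 under both rescalings. After the one to a median of 0, 16 were above 0, beside 50% of all genes. With the trimmed mean 15 were above 0, beside 49.3%, so this split has no clear direction. Past the fold were 0 upward and 2 downward, beside 1.60% and 4.04% of all genes, and the 2 became 1 (EIF4B) after both rescalings or with 5 CPM added. Past a log2 ratio of 0.32 there were 4 upward and 4 downward, beside 9.04% and 18.4% of all genes. The first of the 2 was EIF4B, which stimulates eIF4A, at 29.3 and 10.9 CPM (-1.35, interval without the added CPM -1.64 to -1.23). Its processed pseudogene EIF4BP7 matches it at 99.2% over 485 nt and was at 92.5 and 124 CPM (0.41, interval 0.34 to 0.50). The pair summed to 122 and 134 CPM, with a log2 ratio of 0.14 (interval 0.07 to 0.21). The gene and its pseudogene therefore lay on opposite sides of 0, and the sum was above it.

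The other was EIF2AK3, the kinase PERK that phosphorylates eIF2 under stress of the endoplasmic reticulum, at 57.7 and 37.8 CPM (-0.60, interval -0.73 to -0.49). It had -0.55 after both rescalings and with 5 CPM added, which is short of the fold. PPP1R15B, which guides the phosphatase that reverses this phosphorylation, was next lowest, at 43.6 and 30.8 CPM (-0.49, interval -0.64 to -0.37). The highest was EIF4EBP1, which holds eIF4E until mTORC1 phosphorylates it, at 173 and 250 CPM (0.52, interval 0.47 to 0.58). PAIP1, a partner of the poly(A)-binding protein, was at 123 and 162 CPM (0.40, interval 0.34 to 0.47). MCTS1, which acts in recycling and reinitiation, was at 45.1 and 59.2 CPM (0.39, interval 0.28 to 0.51). The other eIF2 kinases did not share the ratio of EIF2AK3. EIF2AK1, the kinase that senses heme, was at 109 and 117 CPM (0.09, interval 0.02 to 0.17). EIF2AK2, activated by double-stranded RNA, was at 107 and 103 CPM (-0.06, interval -0.14 to 0.02), and EIF2AK4, which senses amino acid shortage, at 31.9 and 31.4 CPM (-0.02, interval -0.17 to 0.13). The sign of EIF2AK4 turned under both rescalings.

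The label of the cells was checked against markers. All 10 hepatocyte and hepatoma markers had values, and they summed to 4472 and 4116 CPM. KRT18, a keratin of simple epithelia, was the most abundant at 1250 and 1592 CPM, and AFP, the fetal plasma protein of hepatoma cells, was at 695 and 566 CPM. FGB, a chain of fibrinogen, was at 950.0 and 623 CPM (-0.61) and was the 1 marker past the fold, though with -0.56 after both rescalings it fell short of it. SERPINA1, which encodes alpha-1-antitrypsin, was at 671 and 455 CPM (-0.56). ALB was low, at 8.82 and 7.04 CPM. So were APOA1 at 4.37 and 4.63 CPM, TTR at 3.62 and 2.49 CPM, and APOB at 15.6 and 11.1 CPM. HNF4A was at 39.1 and 43.8 CPM. A large part of the summed level came from KRT18 and another keratin, KRT8, at 835 and 811 CPM. Of 6 stellate cell and fibroblast markers, 2 had values (COL1A1 and COL3A1), with a summed level of 5.20 and 4.18 CPM, COL3A1 being the more abundant. Of 5 Kupffer cell and leucocyte markers, 2 had values. PTPRC, the pan-leucocyte marker, had 0 tags in both libraries, which allows up to 0.125 CPM in non-treated and 0.121 CPM in treated cells, and CD68 was at 21.2 and 20.5 CPM. Of 4 endothelial markers, 0 had values here. Of the 10 hepatocyte and hepatoma markers 3 were above 0 and 7 below (6 below after both rescalings), with a median of -0.29. Of all genes 42.9% were above 0, with a median of -0.05. That share was 50% after the rescaling to a median of 0 and 49.3% with the trimmed mean. The part of the markers in the members' ratios was not tested.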

How the data were processed

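CAGE tags were measured in 1 library per condition of PLC/PRF/5 cells. The authors removed tags of ribosomal RNA and tags holding ambiguous bases, mapped what remained and deposited 1 CPM value per gene and library, with 2 decimals. The submitters' processing notes name BWA, HISAT2 and hg19, while the methods of the study name a mouse genome; the identifiers are human. The handling of tags matching more than 1 place is not given in the sources used here.

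Tag totals were read back from the steps between low CPM values, with 100% of values within the rounding (0.120 and 0.124 of a tag) of a whole number. A separate check of low values, which 2 decimals leave coarse, did not accept them as recovered counts, so tag numbers and counting intervals rest on this reading and no count test was run. With no replicates, no test of the conditions was run. The members and lists were chosen with earlier results of these data known. Genes were named by fold (1.5), rank of log2 ratio or level, paralogy and list; others were named after their values were seen. Copies were searched with BLAST+ 2.17.0 in GENCODE v29, and positions are from GRCh38. Threshold and interval steps were tested on simulated data. Alternatives were other pseudocounts, filters, scalings, folds and member sets. Python 3.11.15, numpy 2.4.6, pandas 2.3.3, scipy 1.17.1 and matplotlib 3.10.9 were used.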

Additional observations from a re-analysis of the deposited data

How the results depend on the processing

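The median log2 ratio of the members stayed between 0.12 and 0.21 under 9 alternatives (pseudocounts of 0.1 and 5 CPM, a mean of at least 10 CPM or no filter, a rescaling to a median of 0, a trimmed mean of log ratios, genes on the hand-written lists, summed entries of a symbol, and members without a near-identical copy). The last was chosen after seeing the data. Members above 0 were 33 or 34 of 43 under other scalings and pseudocounts and 21 of the 29 without a copy, and these alternatives of the count were also chosen after seeing the data. The share of all genes above 0 was 42.9% in the main setting, 50% after the rescaling to a median of 0 and 49.3% with the trimmed mean. At least 1.5-fold lower was 1 member, and 0 with a mean of at least 10 CPM or without copies, since both leave out EIF3C. At the lower threshold of 0.32 on the log2 scale, 5 were higher and 3 lower. The 5 became 3 with a pseudocount of 5 CPM and 8 after both rescalings, tried at this threshold after seeing the data, and the 3 stayed. Partners past the fold downward went from 2 to 1 under the same 3 settings, and markers from 1 to 0 after both rescalings, also tried after seeing the data. All-gene counts of 219 higher and 555 lower became 336 and 856 with a pseudocount of 0.1 CPM and 91 and 164 with 5 CPM. The share of EIF4E beside EIF4E2 became 35.6% in non-treated and 37.7% in treated cells once EIF4EP2 was added, an alternative also chosen after seeing the data.

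Of 132 values of 33 named genes under 4 settings, 119 moved by less than their counting error and 13 by more. The 5 members with the highest levels (EIF5A, EIF4G2, EIF2S2, EIF1 and EIF4A1) moved upward by more than it under both rescalings. EIF3C had -3.03 with a pseudocount of 0.1 CPM and -0.92 with 5 CPM, and EIF4B had -1.11 with 5 CPM. Of these 33, EIF4E changed sign, to 0.03 and 0.02 under the rescalings. Among the other partners and markers, looked at after seeing the data, EIF2AK4, DDX3X, CD68 and KRT8 turned from below to above 0 under both rescalings, and DHPS under the one to a median of 0. Exact tests of tags between the 2 libraries were listed as a result but were not run, because a check of the low values did not accept the tags read back from CPM as counts. No paired analysis was possible because there is 1 library on each side of the comparison. After both rescalings, also tried for the intervals after seeing the data, 30 members had an interval above 0 and 6 below, in place of 27 and 7, and EIF2B4 was the one that left the 7. Counting intervals do not hold the spread between cultures, which 1 library per condition cannot give.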
